A study of Mus musculus with 12 samples.

Results

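The mouse genes named Zfp900 to Zfp999 were followed across 4 groups of hippocampal RNA libraries. Members were all rows of the count table whose symbol is Zfp followed by a 9 and a further pair of digits. They made up 64 of 54427 genes listed. The rule reads the symbol and no measured value, but it was set with earlier results of these data known. The groups were 5xFAD;Ulk1OV mice, which carry both genotype labels, 5xFAD mice, Ulk1OV mice and wild type (WT) mice, with 3 libraries each. 5xFAD is a transgenic line in which the Thy1 promoter drives mutant human APP in neurons, and it develops amyloid plaques, and Ulk1OV stands for overexpression of ULK1, a kinase that starts autophagy. The sources used here do not give the construct behind Ulk1OV, the age or the number of mice. The labels name the tissue as hippocampal, while another of their fields reads primary cells. They do not say that the replicates are separate animals, so the p-values rest on the spread of these libraries alone, and that spread may be technical.

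Many genes in this numbering encode KRAB zinc finger proteins, a family that expanded in rodents through tandem duplication. Such a protein binds DNA through an array of zinc fingers, and its KRAB domain recruits Trim28, which brings in the histone methyltransferase Setdb1 and heterochromatin proteins. The family is best known for silencing transposable elements; in mouse cells Zfp932 is known to repress endogenous retroviruses, and deletion of the cluster on distal chromosome 4 is known to release them. Roles of most single members are not known well enough to state.

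The libraries held 16149992 to 18547132 counts, of which 7123 to 10398 fell on members. One library stood apart from its label. App, Prnp and the pseudogene Lamr1-ps1, whose counts were high in the other 5 libraries with a 5xFAD label, were at 1310 CPM, 954 CPM and 0 CPM in the library labelled 5xFAD;Ulk1OV replicate 3, inside the range of the 6 libraries without that label (1241 to 1493, 900.1 to 1119 and 0). Counts of called members, the members' medians, the summed clusters and the corepressor counts are therefore also given with this library left out, while the level of a single member is given with it. The Ulk1 transcript had 85.1 to 98.5 CPM in 5xFAD;Ulk1OV and 84.6 to 102 CPM in Ulk1OV. In 5xFAD it had 63.5 to 86.3 CPM and in WT 74.1 to 81.8 CPM. Every library with the Ulk1OV label thus lay above every WT library. However, 5xFAD replicate 1 (86.3) lay above Ulk1OV replicate 3 (84.6) and the library labelled 5xFAD;Ulk1OV replicate 3 (85.1). The Ulk1 level alone therefore did not separate all libraries with that label from those without it. Every one of the 7 neuronal markers was detected, with a summed level of 4601 to 5269 CPM in 5xFAD;Ulk1OV, 4851 to 5872 in 5xFAD, 4961 to 5595 in Ulk1OV and 5164 to 5465 in WT. Summed markers of the choroid plexus, tissue next to the hippocampus, ran from 50.1 to 334 CPM in 5xFAD;Ulk1OV, 26.2 to 156 in 5xFAD, 48 to 4210 in Ulk1OV and 48.7 to 6241 in WT, with each of the 5 markers detected. Their part in the results was not tested.

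The 64 members lie on 12 chromosomes of GRCm38, the build called mm10. GENCODE lists 63 as protein coding and 1, Zfp939, as a transcribed pseudogene. With members closer than 1 Mb joined, 45 of them fell into 6 clusters and 19 stood alone. The largest cluster was on chromosome 4 (145510759 to 147848366) with 16 members, followed by 10 on chromosome 17 (21567008 to 22867134) and 10 on chromosome 2 (175372436 to 178078476). The members share sequence: in 19 of the 64, over 50% of the 50-base stretches of the exons also occur in other genes, and the sources used here do not give how the counting treated such reads. Counts of those members are uncertain, and 7 of them were tested.

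The members' levels differed widely, and most of the lowest ones sat in the chromosome 4 and 2 clusters. Per kb of exon, Zfp938 on chromosome 10 stood highest at a mean of 12.2 CPM per kb over the 12 libraries, followed by Zfp931 at 10.04, Zfp956 at 6.36, Zfp944 at 5.71, Zfp932 at 5.56, Zfp943 at 5.49, Zfp954 at 5.38, Zfp958 at 5.00, Zfp970 at 4.89 and Zfp942 at 4.51. In CPM (counts per 1000000, scaled by edgeR's TMM, the unit of every level below), Zfp938 had 23.6, 20.99 and 22.5 in the 5xFAD;Ulk1OV libraries, 24.0, 33.6 and 29.5 in 5xFAD, 26.1, 25.2 and 30.9 in the Ulk1OV libraries and 25.3, 25.5 and 23.0 in WT. Zfp956 had 17.99, 18.1 and 19.3 in 5xFAD;Ulk1OV, 20.9, 17.3 and 19.4 in 5xFAD, 17.4, 17.1 and 20.1 in the Ulk1OV libraries and 19.3, 18.6 and 21.3 in WT. Its groups overlapped in every comparison. Of the 64 members, 48 passed edgeR's filter on low counts and were tested, 43 of them at a mean of at least 1 CPM. Of the 16 others, Zfp935, Zfp936 and Zfp989 had 0 counts in every library, which allows a level of up to 0.162 to 0.186 CPM by a floor of 3 counts per library. A further 5 had 1 to 6 counts in all libraries together and 8 had 10 to 60. Of the untested members 8 lay in the chromosome 4 cluster and 5 in the chromosome 2 cluster.

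**Figure D1:**
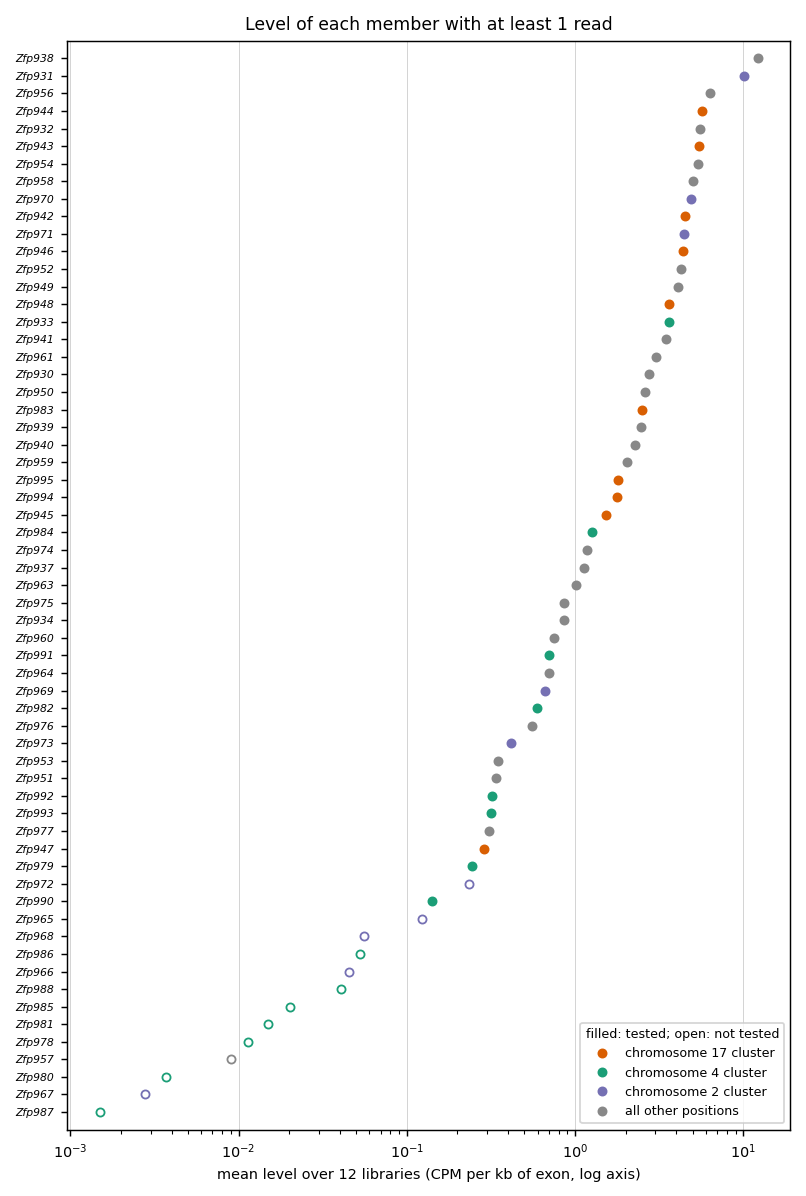
Mean level of the 61 members with at least 1 read, in CPM per kb of exon on a log axis, highest at the top. Zfp938 (12.2) and Zfp931 (10.04) lead, 9 of the 10 members of the chromosome 17 cluster lie above 1 CPM per kb (Zfp947 does not), and 14 of the 16 members of the chromosome 4 cluster lie below it; open circles mark members that were not tested.

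Promoters are shown for some of the members named below. They are 4 called members of the chromosome 17 cluster, the called Zfp970 of the chromosome 2 cluster, and Zfp979 of the chromosome 4 cluster, which was not called. Each runs from 250 bases before to 50 bases after the RefSeq start, on GRCm38.p6, 5′ to 3′ on the gene's strand: Zfp943 at chr17:21962309-21962608 (+), Zfp944 at chr17:22361351-22361650 (-), Zfp946 at chr17:22423952-22424251 (+), Zfp994 at chr17:22225565-22225864 (-), Zfp970 at chr2:177464492-177464791 (+) and Zfp979 at chr4:147642459-147642758 (-). Capitals mark every match, on either strand, to 5 motifs: the TATA box (TATAAA), the CCAAT box (these letters), the GC box (GGGCGG), the E-box (CACGTG) and the YY1 motif (GCCATNTT).
Zfp943: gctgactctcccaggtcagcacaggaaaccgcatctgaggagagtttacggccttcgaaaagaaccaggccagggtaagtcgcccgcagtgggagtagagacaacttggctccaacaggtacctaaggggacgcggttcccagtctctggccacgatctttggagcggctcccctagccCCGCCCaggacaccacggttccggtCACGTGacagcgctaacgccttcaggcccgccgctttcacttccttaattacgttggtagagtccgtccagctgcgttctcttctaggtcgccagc
Zfp944: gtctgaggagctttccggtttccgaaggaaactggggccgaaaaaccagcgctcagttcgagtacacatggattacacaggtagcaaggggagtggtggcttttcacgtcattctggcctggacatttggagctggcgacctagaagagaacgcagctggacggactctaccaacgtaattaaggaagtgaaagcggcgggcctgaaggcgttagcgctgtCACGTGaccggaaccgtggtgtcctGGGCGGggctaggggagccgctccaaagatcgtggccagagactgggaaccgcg
Zfp946: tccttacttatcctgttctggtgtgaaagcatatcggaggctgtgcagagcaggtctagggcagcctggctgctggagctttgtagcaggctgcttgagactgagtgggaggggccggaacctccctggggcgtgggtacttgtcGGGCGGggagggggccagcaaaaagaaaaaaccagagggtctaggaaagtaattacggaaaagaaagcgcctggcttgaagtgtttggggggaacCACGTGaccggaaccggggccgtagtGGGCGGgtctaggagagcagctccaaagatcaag
Zfp994: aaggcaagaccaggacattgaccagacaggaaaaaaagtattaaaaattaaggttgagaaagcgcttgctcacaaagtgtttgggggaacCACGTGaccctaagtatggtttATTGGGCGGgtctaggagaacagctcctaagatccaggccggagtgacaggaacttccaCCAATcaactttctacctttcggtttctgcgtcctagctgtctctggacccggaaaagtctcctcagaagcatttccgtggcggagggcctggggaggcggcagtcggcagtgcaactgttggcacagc
Zfp970: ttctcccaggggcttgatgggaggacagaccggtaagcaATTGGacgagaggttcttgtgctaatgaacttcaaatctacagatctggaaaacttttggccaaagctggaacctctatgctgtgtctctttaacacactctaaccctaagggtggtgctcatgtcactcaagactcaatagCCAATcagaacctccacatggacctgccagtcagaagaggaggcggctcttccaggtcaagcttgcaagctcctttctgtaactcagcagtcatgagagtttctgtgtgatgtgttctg
Zfp979: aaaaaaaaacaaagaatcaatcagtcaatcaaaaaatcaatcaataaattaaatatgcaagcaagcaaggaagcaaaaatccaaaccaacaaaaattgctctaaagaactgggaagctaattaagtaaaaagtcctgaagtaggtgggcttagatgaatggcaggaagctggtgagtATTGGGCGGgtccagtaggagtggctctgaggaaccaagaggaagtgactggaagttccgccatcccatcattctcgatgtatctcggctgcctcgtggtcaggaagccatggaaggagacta
In Zfp943, Zfp944, Zfp946 and Zfp994 the capitals include 1 CACGTG each, starting 46, 29, 10 and 160 bases before the start. In Zfp994 and Zfp979 a CCAAT match on the opposite strand overlaps the GC box, and both are inside 1 run of capitals. Zfp943 and Zfp944 share a run of 169 identical bases when one of them is read on the other strand. The longest run that Zfp946 shares with Zfp994 is 17 bases. Zfp942 and Zfp943 start head to head, 87 bases apart, so their promoter windows overlap.

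A promoter within 1000 bases of the GENCODE start was at hand for 50 members and for 17311 genes in all. CACGTG was in 7 of the 50 (14%), against 8.25% of all promoters, and 6 of those 7 belong to the chromosome 17 cluster (Zfp942, Zfp943, Zfp944, Zfp946, Zfp947 and Zfp994; the other is Zfp933). CCAAT was in 38 (76%), against 38.2%, the GC box in 18 (36%), against 46.8%, the YY1 motif in 4 (8%), against 6.72%, and TATAAA in 0, against 11.7%. The members' promoters held a median of 7.5 CpG dinucleotides, against 13 over all promoters. In the chromosome 17 cluster, Zfp948 and Zfp995 (called in the interaction below) and Zfp945 and Zfp983 (not called) had no CACGTG. Zfp947, which had it, was not called. The overlapping windows of Zfp942 and Zfp943 hold the same CACGTG, and the run that Zfp943 shares with Zfp944 includes it. The promoters counted for this motif thus do not all hold separate sites or unrelated sequence. A match describes the letters of the window and shows no binding.

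The comparison of the groups with each other asked how the members' transcripts differ with 5xFAD, with Ulk1OV and with both. The members' summed level was on average higher in the groups with a single label than in the other pair of groups. It averaged 410.0 ± 10.2 CPM in 5xFAD;Ulk1OV, 492.0 ± 51.8 in 5xFAD, 513.5 ± 46.0 in Ulk1OV and 426.8 ± 11.9 in WT (SD, n = 3 each). By library the sums were 402, 406 and 422 CPM in 5xFAD;Ulk1OV, 436, 538 and 503 in 5xFAD, 488, 486 and 567 in the Ulk1OV libraries, and 419, 421 and 440 in WT. Each Ulk1OV library lay above all WT and 5xFAD;Ulk1OV libraries, while 5xFAD replicate 1 lay between WT replicates 2 and 3. In bulk tissue, fewer cells of a type and less RNA per cell cannot be told apart. The comparisons below share libraries in pairs (WT serves as control of both 5xFAD and Ulk1OV), so their directions are not independent of each other. The members are low in GC content, and medians over all genes of low GC content are given further below for each comparison.

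In 5xFAD against WT, 0 of the 48 tested members were called by edgeR's quasi-likelihood test at a Benjamini-Hochberg adjusted p under 0.05, as were 0.0% of the 17227 genes tested; 8 members had an unadjusted p under 0.05, as had 12.4% of all genes, and DESeq2 called 0, against 0.43% of all. DESeq2 was run without edgeR's filter, so here and below its counts are out of 61 members and its shares out of 31620 genes. The median log2 fold change of the 48 members was 0.18 by edgeR, against 0.00 over all tested genes. Of the 48, 38 lay above 0, as did 50.5% of all. The groups did not overlap in 12 members, 11 with 5xFAD above (10.5% of all genes) and 1 with it below (9.05% of all genes). The smallest p-values of positive differences were those of Zfp970 (0.56 ± 0.16, SE), Zfp948 (0.50 ± 0.16) and Zfp958 (0.43 ± 0.15), with adjusted p of 0.239, 0.260 and 0.286 by edgeR. Zfp970 had 10.1, 13.2 and 14.4 CPM in 5xFAD and 8.11, 8.66 and 8.73 CPM in WT, so its lowest 5xFAD library lay above its highest WT library. The smallest p-values of negative differences were those of Zfp953 (-0.66 ± 0.31, edgeR adjusted p = 0.404), Zfp990 and Zfp979 (-1.32 ± 0.81, edgeR adjusted p = 0.529). Zfp953 averaged 1.30 ± 0.0164 CPM in 5xFAD and 2.07 ± 0.674 in WT (SD, n = 3 each). For Zfp990 no fold is given, since it had 0 counts in each 5xFAD library.

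In Ulk1OV against WT, 1 member rose and 0 fell, against 5.17% of all tested genes called, 2.14% rising and 3.04% falling; 17 members had an unadjusted p under 0.05, as had 24.1% of all genes, and DESeq2 called 5, against 5.87% of all. The member was Zfp946 (chromosome 17, 22424222 to 22456689), which had 18.7, 16.6 and 21.4 CPM in Ulk1OV and 12.3, 12.9 and 13.6 CPM in WT. Every Ulk1OV library lay above every WT library, and the log2 fold change was 0.55 ± 0.15 (edgeR adjusted p = 0.0481). Taking out the trends over GC content and length described below, it was 0.36, and not called (edgeR adjusted p = 0.137). The call held in 3 of 12 fits with a library left out, those without 5xFAD replicate 1 (0.0445 as edgeR adjusted p), the library labelled 5xFAD;Ulk1OV replicate 3 (0.0410) or Ulk1OV replicate 2 (0.0388), and reached 0.208 without Ulk1OV replicate 3, 0.159 without WT replicate 1 and 0.129 without WT replicate 2. In those last 3 fits 0 of all tested genes were called. The members' median was 0.31 (0.30 in the fit lacking the library labelled 5xFAD;Ulk1OV replicate 3), against 0.00 over all genes, and 37 of 48 lay above 0, as did 50.4% of all. In 21 members all Ulk1OV libraries lay above all WT libraries, as in 15.0% of all genes, and in 0 members below, as in 14.5%. Zfp943 and Zfp970 came next, at 0.46 ± 0.14 and 0.52 ± 0.16 (edgeR adjusted p = 0.0658 and 0.0666). On the negative side Zfp991 (-0.65 ± 0.44, edgeR adjusted p = 0.390), Zfp956 (-0.12 ± 0.11, 0.559) and Zfp964 (-0.19 ± 0.20, 0.588) had the smallest p-values, and their groups overlapped; the value of Zfp956 was 0.01 once those trends were taken out.

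In 5xFAD;Ulk1OV against Ulk1OV, 4 members fell and 0 rose, against 6.1% of all tested genes called, 2.43% falling and 3.67% rising; 16 members had an unadjusted p under 0.05, as had 24.8% of all genes, and DESeq2 called 7, against 6.3% of all. All 4 lie in the chromosome 17 cluster. Zfp994 had 5.42, 6.39 and 7.29 CPM in 5xFAD;Ulk1OV and 11.2, 11.3 and 12.4 CPM in Ulk1OV, a log2 fold change of -0.87 ± 0.17 (edgeR adjusted p = 0.0181). Zfp943 differed by -0.55 ± 0.14, Zfp942 by -0.48 ± 0.13 and Zfp946 by -0.56 ± 0.15 (edgeR adjusted p = 0.0347, 0.0407 and 0.0415). Zfp994 alone was called once the GC and length trends were taken out. In these 4, every 5xFAD;Ulk1OV library lay below every Ulk1OV library. This held in 20 members, against 13.4% of all genes, and the reverse in 0, against 14.2%. The median over the members was -0.36, against -0.01 over all genes, with 41 of 48 below 0, as 51.6% of all genes were. Leaving out the library labelled 5xFAD;Ulk1OV replicate 3, the median was -0.39 and the test also called 4, against 8.97% of all genes, with Zfp994 and Zfp946 among them, while Zfp943 and Zfp942 stood at an edgeR adjusted p of 0.0734 and 0.0804. The count was 0 without 5xFAD;Ulk1OV replicate 1, 5xFAD;Ulk1OV replicate 2 or Ulk1OV replicate 3, 1 without WT replicate 1 and 2 without Ulk1OV replicate 1 or WT replicate 2. The count over all genes moved in the same fits: 0 genes were called in the first 3, and 3.72%, 2.19% and 4.08% of all tested genes in the fits without WT replicate 1, Ulk1OV replicate 1 and WT replicate 2. On the positive side Zfp973 (0.46 ± 0.54), Zfp969 (0.41 ± 0.52) and Zfp941 (0.09 ± 0.18) had the smallest p-values, with edgeR adjusted p of 0.644, 0.661 and 0.797.

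In 5xFAD;Ulk1OV against 5xFAD, 0 of 48 members were called, against 0.0464% of all tested genes; 14 members had an unadjusted p under 0.05, as had 17.4% of all genes, and DESeq2 called 1, against 2.28% of all. The median was -0.30, against 0.00 over all genes, with 41 of 48 below 0, as 50.2% of all genes were. In 11 members all 5xFAD;Ulk1OV libraries lay below all 5xFAD libraries, as in 11.5% of all genes, and in 0 above, as in 10.7%. Zfp942 had 20.01, 19.6 and 18.3 CPM in 5xFAD;Ulk1OV and 22.4, 28.4 and 30.2 CPM in 5xFAD (-0.48 ± 0.13, edgeR adjusted p = 0.0982). Zfp940 on chromosome 7 averaged 11.9 ± 0.272 CPM in 5xFAD;Ulk1OV and 15.6 ± 0.190 CPM in 5xFAD (SD, n = 3 each), a difference of -0.39 ± 0.12 (edgeR adjusted p = 0.132). Zfp943 differed by -0.42 ± 0.14 (edgeR adjusted p = 0.147). The smallest p-values of positive differences were those of Zfp990, which had 0, 14 and 0 counts against 0 in each 5xFAD library, Zfp941 (0.20 ± 0.18, edgeR adjusted p = 0.603) and Zfp993 (0.74 ± 0.96, 0.741). The count of called members was 1 without 5xFAD replicate 1, against 1.48% of all genes. It stayed at 0, against 0.0682%, when the library labelled 5xFAD;Ulk1OV replicate 3 was left out, with a median of -0.29.

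The interaction asked whether the difference that 5xFAD makes is another one where the Ulk1OV label is present: it is the log2 difference of 5xFAD;Ulk1OV from Ulk1OV minus that of 5xFAD from WT. It was negative and called in 12 of the 48 tested members and positive and called in 0, against 12.8% of all tested genes called, 5.96% negative and 6.8% positive; 19 members had an unadjusted p under 0.05, as had 29.4% of all genes, and DESeq2 called 13, against 9.1% of all. Once the GC and length trends were taken out, 0 members were called. The fitted value was below 0 in 42 of 48, as in 50.8% of all genes. The median over the members was -0.53, against -0.01 over all genes and -0.24 over the 315 other numbered Zfp genes tested, of which 8 were called positive and 29 negative. The 12 were Zfp942, Zfp943, Zfp944, Zfp946, Zfp948, Zfp994 and Zfp995 of the chromosome 17 cluster, Zfp970 of the chromosome 2 cluster, Zfp930 and Zfp958 on chromosome 8, Zfp932 on chromosome 5 and Zfp934 on chromosome 13. In each of the 12, the means of 5xFAD and of Ulk1OV both stood above those of 5xFAD;Ulk1OV and WT. A negative interaction already favours this order, so it is no separate result. That order held in 28 of 48 tested members and in 28.0% of all tested genes, sets not chosen by the interaction.

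In the chromosome 17 cluster, Zfp943 (21962552 to 22071168) had 21.8, 23.2 and 19.8 CPM in 5xFAD;Ulk1OV, 26.3, 32.7 and 27.9 in 5xFAD, 28.0, 28.4 and 38.2 in the Ulk1OV libraries and 22.7, 21.3 and 25.0 in WT. The lowest library of either group with a single label lay above the highest of 5xFAD;Ulk1OV and of WT. Its interaction was -0.88 ± 0.19 (edgeR adjusted p = 0.0133). Zfp942, its head-to-head neighbour (21926960 to 21962464), had 20.01, 19.6 and 18.3 CPM in 5xFAD;Ulk1OV, 22.4, 28.4 and 30.2 in 5xFAD, 26.6, 24.2 and 29.9 in the Ulk1OV libraries and 22.0, 22.8 and 20.02 in WT. The 5xFAD and WT libraries of Zfp942 overlapped, and its interaction was -0.80 ± 0.18 (edgeR adjusted p = 0.0137). Zfp946 had 12.9, 10.9 and 14.8 CPM in 5xFAD;Ulk1OV, 14.8, 15.4 and 19.1 in 5xFAD, and the Ulk1OV and WT values given above. Its lowest 5xFAD library stood just above its highest 5xFAD;Ulk1OV library, and the interaction was -0.90 ± 0.21 (edgeR adjusted p = 0.0159). Beside the values given above, Zfp994 (22197265 to 22225616) had 7.18, 8.59 and 10.9 CPM in 5xFAD and 8.23, 7.30 and 8.28 CPM in WT, groups that overlapped, and an interaction of -1.03 ± 0.24 (edgeR adjusted p = 0.0165). Zfp944 (22337989 to 22361400) had 14.2, 14.0 and 14.1 CPM in 5xFAD;Ulk1OV, 15.9, 18.8 and 18.4 in 5xFAD, 18.03, 15.9 and 19.6 in the Ulk1OV libraries and 13.6, 13.2 and 15.1 in WT, with an interaction of -0.68 ± 0.17 (edgeR adjusted p = 0.0200). Both groups with a single label stood wholly above the other pair in Zfp944.

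The other called members of that cluster were Zfp995 and Zfp948. Zfp995 (21879570 to 21909926) averaged 4.43 ± 1.24 CPM in 5xFAD;Ulk1OV, 6.15 ± 1.33 in 5xFAD, 7.69 ± 1.69 in Ulk1OV and 4.40 ± 1.23 in WT (SD, n = 3 each), an interaction of -1.28 ± 0.38 (edgeR adjusted p = 0.0416). Zfp948 (21567008 to 21588699) averaged 8.88 ± 1.03 CPM in 5xFAD;Ulk1OV, 11.2 ± 1.80 in 5xFAD, 10.4 ± 1.02 in Ulk1OV and 7.96 ± 0.721 in WT, an interaction of -0.72 ± 0.22 (edgeR adjusted p = 0.0464). The cluster's remaining members, Zfp945, Zfp947 and Zfp983, were not called, with values of -0.37 ± 0.19, -0.45 ± 0.89 and -0.52 ± 0.24 (edgeR adjusted p = 0.215, 0.781 and 0.170). Because reads could be split among such neighbours, the counts of the 10 members were also summed. The sum averaged 111.9 ± 2.67 CPM in 5xFAD;Ulk1OV, 146.0 ± 17.2 in 5xFAD, 153.6 ± 13.6 in Ulk1OV and 117.7 ± 5.15 in WT. Every library of the groups with a single label (126 to 169 CPM) lay above every library of the other pair (109 to 124 CPM). Its interaction was -0.77 ± 0.13 (edgeR adjusted p = 0.00661), its difference of Ulk1OV from WT 0.38 ± 0.09 (0.0388) and that of 5xFAD;Ulk1OV from Ulk1OV -0.46 ± 0.09 (0.0197). Without the library labelled 5xFAD;Ulk1OV replicate 3 these were -0.75 ± 0.15, 0.37 ± 0.10 and -0.45 ± 0.11 (edgeR adjusted p = 0.00863, 0.0428 and 0.0282). The interaction of the sum was called in each of the 12 fits that leave out a library (edgeR adjusted p = 0.00164 to 0.0228). It was also called once the trends over GC content and length were removed, at -0.40 ± 0.10 (edgeR adjusted p = 0.0321), while the differences of Ulk1OV from WT and of 5xFAD;Ulk1OV from Ulk1OV then had an edgeR adjusted p of 0.0925 and 0.0846. These refits of the sum were chosen after seeing the data. The difference of the sum between Ulk1OV and WT was called without 5xFAD replicate 1, 5xFAD replicate 2, Ulk1OV replicate 2 or the library labelled 5xFAD;Ulk1OV replicate 3, and lost its call without any of the other 8 libraries (edgeR adjusted p = 0.0505 to 0.1796). The difference between 5xFAD;Ulk1OV and Ulk1OV lost its call without replicate 1 or 2 of 5xFAD;Ulk1OV (0.0876 and 0.0872) or replicate 3 of Ulk1OV (0.109).

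Outside chromosome 17, Zfp970 (chromosome 2, 177464733 to 177478129) had 7.94, 10.3 and 9.41 CPM in 5xFAD;Ulk1OV, 10.1, 13.2 and 14.4 in 5xFAD, 11.9, 11.2 and 13.5 in the Ulk1OV libraries and 8.11, 8.66 and 8.73 in WT, with an interaction of -0.97 ± 0.22 (edgeR adjusted p = 0.0154). Its 5xFAD;Ulk1OV and 5xFAD libraries overlapped. Other genes share 49.7% of its 50-base stretches, so its counts are uncertain. With the 10 members of its cluster summed, the interaction was -0.68 ± 0.22 and not called (edgeR adjusted p = 0.0640). Zfp932 (chromosome 5, 109996521 to 110010411), the repressor of endogenous retroviruses, had 14.6, 14.0 and 16.3 CPM in 5xFAD;Ulk1OV, 16.6, 21.1 and 22.6 in 5xFAD, 19.8, 20.9 and 20.98 in the Ulk1OV libraries and 14.3, 16.9 and 20.1 in WT (-0.69 ± 0.20, edgeR adjusted p = 0.0403). WT replicate 3 of Zfp932 lay inside the range of the Ulk1OV libraries. Zfp958 and Zfp930 on chromosome 8 had interactions of -0.77 ± 0.21 and -0.73 ± 0.22 (edgeR adjusted p = 0.0295 and 0.0472), and Zfp934 on chromosome 13 one of -1.02 ± 0.31 (0.0476). The 12 called members shared 0.115% to 49.7% of their 50-base stretches with other genes, and 5 of them (Zfp930, Zfp943, Zfp946, Zfp948 and Zfp958) less than 3%. The smallest p-values of a positive interaction were those of Zfp990, Zfp969 (0.54 ± 0.73) and Zfp941 (0.16 ± 0.25), and none of them was called (edgeR adjusted p = 0.620, 0.671 and 0.725).

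**Figure D2:**
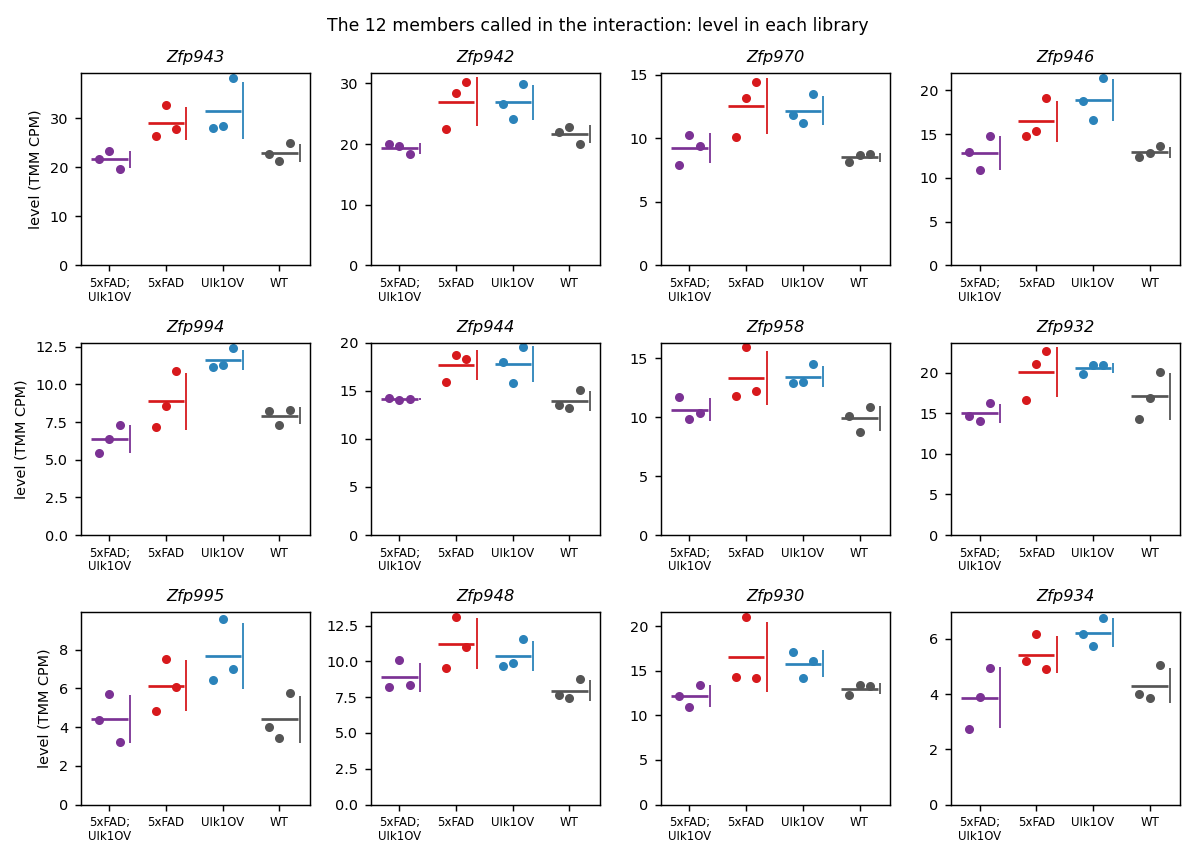
Level in TMM-scaled CPM of the 12 members with a called interaction, in each library (points, replicates 1 to 3 from left to right) of 5xFAD;Ulk1OV, 5xFAD, Ulk1OV and WT, with the group mean (horizontal bar) and SD (vertical bar at its right). In every panel the 5xFAD and Ulk1OV means lie above the 5xFAD;Ulk1OV and WT means, as for Zfp943 with 29.0 and 31.5 CPM against 21.6 and 23.0 CPM. Choosing members by a negative interaction favours this order.

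The interaction calls depended on single libraries. With the library labelled 5xFAD;Ulk1OV replicate 3 left out the count was 12, against 14.4% of all genes, and the median -0.61, with 10 of the 12 among them; Zfp948 and Zfp995 stood at an edgeR adjusted p of 0.0857 and 0.0745. It fell to 5 without Ulk1OV replicate 3, WT replicate 1 or WT replicate 2, to 6 without 5xFAD replicate 2 or 5xFAD;Ulk1OV replicate 2, and to 7 without 5xFAD replicate 3 or 5xFAD;Ulk1OV replicate 1. The share of all tested genes called was lower in the same fits: 5.53%, 5.94% and 7.13% in the 3 with 5 members, 7.72% and 5.73% in those with 6, and 7.07% and 6.5% in those with 7. In all 12 fits that leave out a library, 5 members were called: Zfp942, Zfp943, Zfp946 and Zfp994 of the chromosome 17 cluster, and Zfp970. Their edgeR adjusted p across these fits ran from 0.00524 to 0.0491.

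The members' exons are rich in A and T, and GC content moved with the interaction over all genes. The median GC content was 38.9% in the 48 tested members, 45.7% in the other numbered Zfp genes and 49.6% over all tested genes, and 43 of the 48 lay in the lowest quintile of GC content (22.1% to 43.7%). In that quintile the median over all genes was 0.15 in 5xFAD against WT and 0.16 in Ulk1OV against WT. It was -0.20 in 5xFAD;Ulk1OV against Ulk1OV and -0.19 in 5xFAD;Ulk1OV against 5xFAD. The 43 members there had medians of 0.22, 0.33, -0.38 and -0.32 in that order. The median interaction over all genes was -0.35 in that quintile and 0.39 in the highest. The 43 members in the lowest quintile had a median of -0.55, and 12 of them (27.9%) were called, against 18.3% of the genes of that quintile. When a loess fit removed, library by library, the dependence of counts on GC content and length, 0 of 48 members were called, against 4.69% of all tested genes, and the members' median was -0.21, against -0.05. The lowest adjusted p among the members was then 0.0538, that of Zfp970 (-0.71 ± 0.19). The 12 called members kept 47.1% to 75.8% of their values. The correction for GC content alone also left 0 calls, against 4.99% of all genes, while that for length alone gave 13, against 10.7%. With both trends taken out, 1 member was called in 5xFAD;Ulk1OV against Ulk1OV, Zfp994 (-0.65 ± 0.15, edgeR adjusted p = 0.0470), against 2.09% of all tested genes, and 0 in Ulk1OV against WT, against 2.7% of all. The members' corrected medians were 0.09 in 5xFAD against WT and 0.13 in Ulk1OV against WT, against 0.03 and 0.02 over all genes. In 5xFAD;Ulk1OV against Ulk1OV and against 5xFAD they were -0.15 and -0.14, against -0.02 and -0.03. With the corrected fit repeated after dropping the library labelled 5xFAD;Ulk1OV replicate 3, a repeat chosen after seeing the data, the interaction was called in 0 members, against 6.14% of all tested genes, and its median was -0.28. The share of counts from mitochondrially encoded genes was 4.03% to 5.97% in 5xFAD;Ulk1OV, 5.52% to 6.98% in 5xFAD, 6.40% to 8.76% in Ulk1OV and 5.05% to 5.42% in WT. It was thus higher in every library with a single label than in every WT library. In 5xFAD;Ulk1OV replicates 1 and 2 it was 4.17% and 4.03%, below every other library. The library labelled 5xFAD;Ulk1OV replicate 3 had 5.97%, inside the range of 5xFAD. The part of this mitochondrial share in the members' result was not tested.

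**Figure D3:**
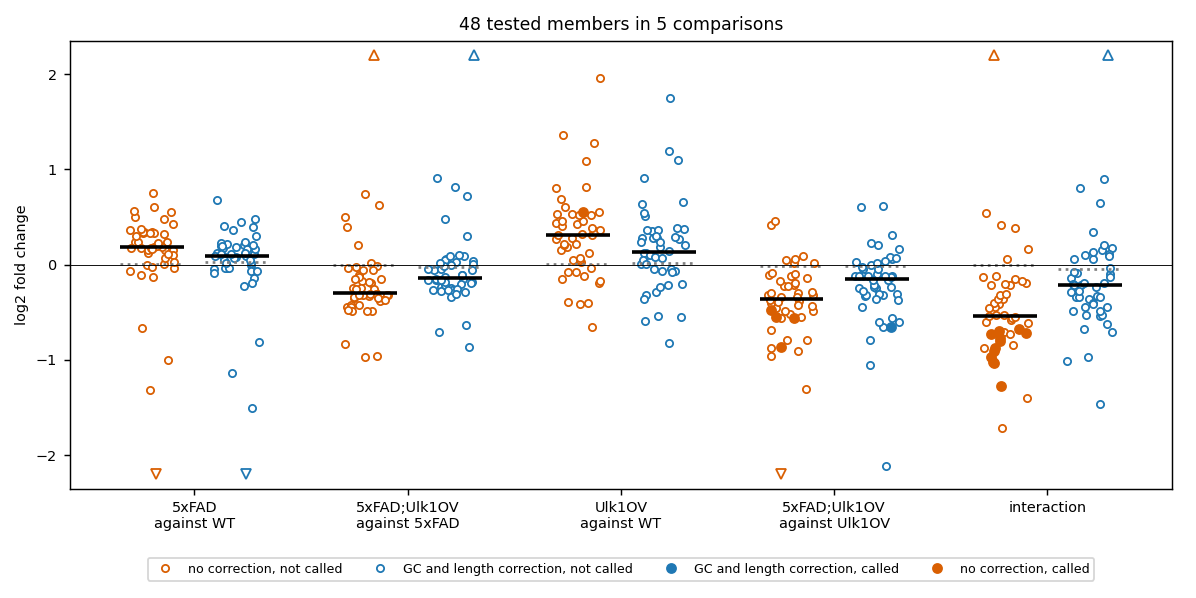
Log2 fold change of the 48 tested members in the 4 comparisons and the interaction, as fitted (orange) and after the GC and length correction (blue). Filled points are called by edgeR at an adjusted p under 0.05, black bars are the members' medians, dotted grey bars the medians of all tested genes, and triangles stand for Zfp990, which lies beyond the axis. The interaction's median is -0.53 without the correction and -0.21 with it.

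**Figure D4:**
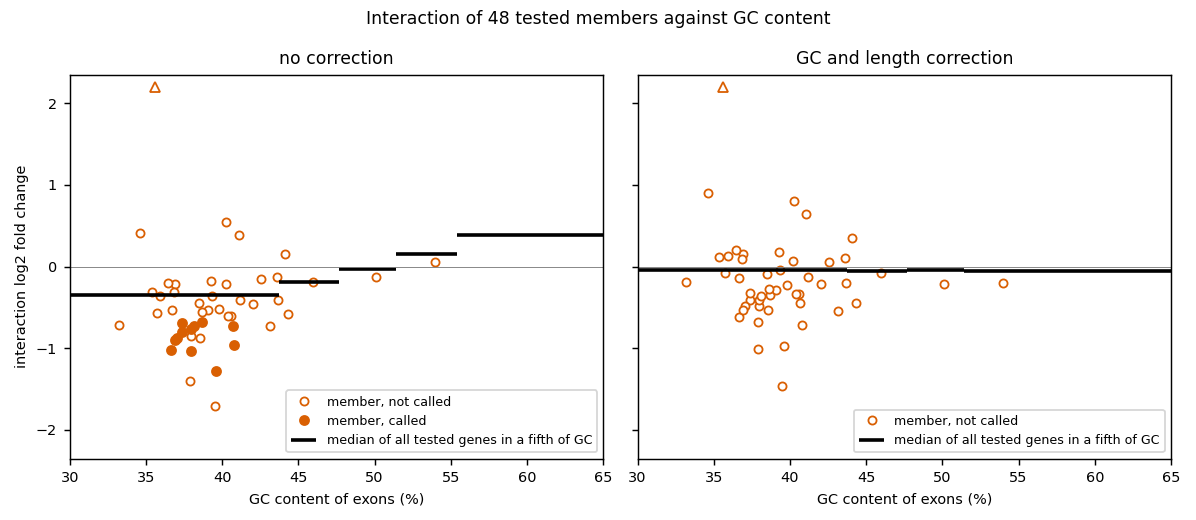
Interaction log2 fold change of the 48 tested members against the GC content of their exons in percent, without (left) and with (right) the correction. Black bars are medians of all tested genes in each quintile of GC content, which climb from -0.35 to 0.39 on the left and lie near -0.05 on the right; the triangle stands for Zfp990, beyond the axis.

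In the chromosome 4 cluster, 8 of 16 members were tested, and 0 were called in any comparison. Its summed members averaged 22.0 ± 2.29 CPM in 5xFAD;Ulk1OV, 27.0 ± 2.27 in 5xFAD, 27.2 ± 1.18 in Ulk1OV and 26.8 ± 5.53 in WT, with an interaction of -0.32 ± 0.19 (edgeR adjusted p = 0.301) and of -0.26 ± 0.21 (0.447) when the library labelled 5xFAD;Ulk1OV replicate 3 was left out. Differences between libraries of a group were large here. Zfp990 (145510759 to 145539188) had 0, 14 and 0 counts in 5xFAD;Ulk1OV replicates 1 to 3, 0 in each 5xFAD library, 45, 0 and 24 in the Ulk1OV libraries and 18, 0 and 0 in WT. A count of 0 allows up to 3 counts. It was thus read in 4 libraries of 3 groups and in none of the other 8. Zfp979 had 9, 28 and 6 counts in 5xFAD;Ulk1OV, 4, 11 and 12 in 5xFAD, 37, 8 and 30 in the Ulk1OV libraries and 36, 3 and 27 in WT. Zfp992 had 20, 34 and 3 counts in 5xFAD;Ulk1OV, 17, 16 and 6 in 5xFAD, 89, 11 and 29 in the Ulk1OV libraries and 34, 14 and 29 in WT. The 4 libraries with Zfp990 counts were also among the 5 highest for Zfp979 and for Zfp992, with WT replicate 3 as the fifth. Zfp933 had 276, 212 and 267 counts in 5xFAD;Ulk1OV, 284, 289 and 340 in 5xFAD, 184, 306 and 282 in the Ulk1OV libraries and 214, 283 and 344 in WT, with its lowest 3 values in 3 of the 4 libraries with Zfp990 counts. Within this cluster 27.1% of the 50-base stretches of Zfp979, 29.1% of those of Zfp990, 43.0% of those of Zfp992 and 1.83% of those of Zfp933 occur in other genes. No test was made on libraries grouped by these values.

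**Figure D5:**
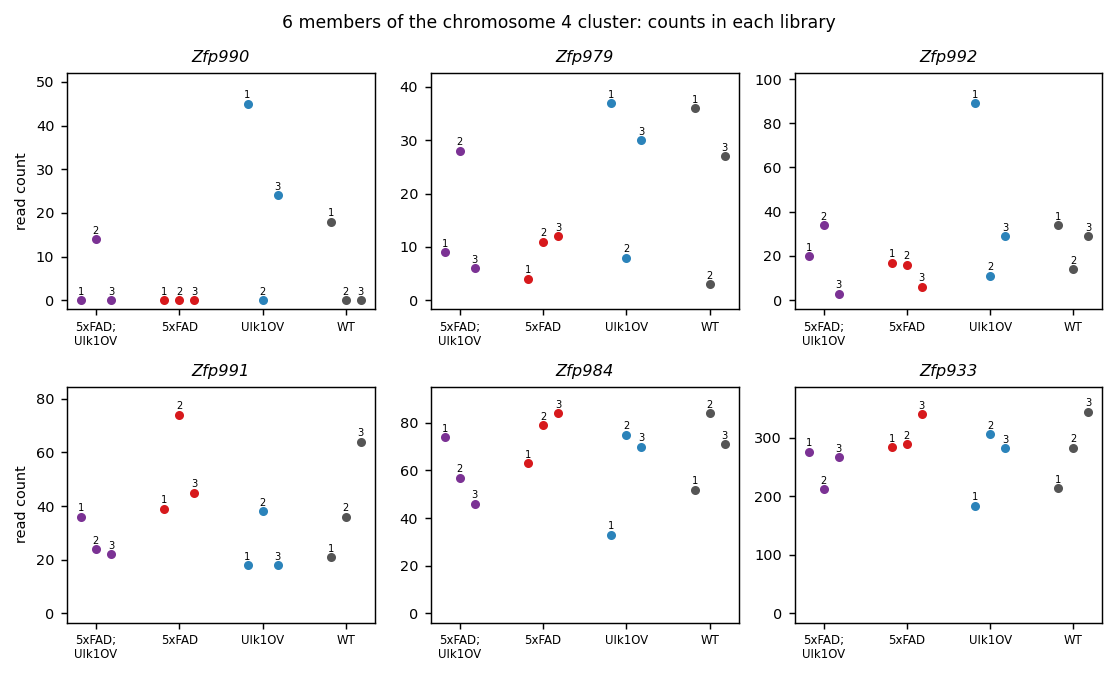
Read counts of 6 members of the chromosome 4 cluster in each library, with the replicate number above the point; the vertical axes differ. Zfp990 has 14 counts in 5xFAD;Ulk1OV replicate 2, 45 and 24 in Ulk1OV replicates 1 and 3, 18 in WT replicate 1 and 0 elsewhere, and Zfp979 and Zfp992 are high in the same libraries.

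Among 38 genes of the machinery through which KRAB zinc finger proteins repress, 37 were tested. As fitted, the proteins' central partners were not called in any of the 4 comparisons or in the interaction: Trim28 had an interaction of -0.16 ± 0.12 (edgeR adjusted p = 0.397) and Setdb1 one of 0.06 ± 0.15 (edgeR adjusted p = 0.825). Trim28 was called once the GC and length trends were removed, with an interaction of -0.67 (edgeR adjusted p = 0.0111) and a difference of 0.38 between Ulk1OV and WT (edgeR adjusted p = 0.0347). In the interaction as fitted 5 of 37 were called (13.5%), 1 positive and 4 negative, against 12.8% of all tested genes, a share close to that of all genes. With the library labelled 5xFAD;Ulk1OV replicate 3 left out 7 were called (18.9%), against 14.4% of all. H3f3a, which encodes a replacement histone, averaged 94.2 ± 3.72 CPM in 5xFAD;Ulk1OV, 68.9 ± 7.53 in 5xFAD, 59.7 ± 7.57 in Ulk1OV and 89.8 ± 1.60 in WT (SD, n = 3 each), an interaction of 1.04 ± 0.14 (edgeR adjusted p = 0.00311) opposite in sign to the members' median. It has processed copies elsewhere in the genome, so its counts are uncertain. Pphln1, a subunit of the HUSH silencing complex, averaged 40.1 ± 2.67 CPM in 5xFAD;Ulk1OV, 52.0 ± 4.68 in 5xFAD, 57.0 ± 3.88 in Ulk1OV and 41.5 ± 0.843 in WT, an interaction of -0.83 ± 0.13 (edgeR adjusted p = 0.00465). The chromatin remodellers Atrx (-0.73 ± 0.11, edgeR adjusted p = 0.00488) and Smarcad1 (-0.54 ± 0.14, 0.0250) and the histone deacetylase gene Hdac2 (-0.43 ± 0.10, 0.0164) were the others. Once the GC and length trends were removed, 4 of 37 were called (10.8%), against 4.69% of all tested genes. These were H3f3a at 1.22 and Pphln1 at -0.65 (edgeR adjusted p = 0.00471 and 0.00845), Trim28, and Mta1, a subunit of the NuRD complex, at -0.51 (edgeR adjusted p = 0.0223). Atrx, Hdac2 and Smarcad1 were not called (edgeR adjusted p = 0.194, 0.294 and 0.503), and Mta1 had stood at -0.10 ± 0.12 as fitted (edgeR adjusted p = 0.601). The corrected values of Trim28 and Mta1 are named after their values were seen. With that library also left out, 4 of 37 were called as well, against 6.14% of all genes.

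In the separate comparisons Pphln1 and Hdac2 rose and H3f3a fell in Ulk1OV against WT, with values of 0.46 ± 0.09, 0.33 ± 0.07 and -0.59 ± 0.10 (edgeR adjusted p = 0.0251, 0.0287 and 0.0199). In 5xFAD;Ulk1OV against Ulk1OV H3f3a rose by 0.66 ± 0.10, and Atrx and Pphln1 differed by -0.45 ± 0.08 and -0.51 ± 0.09 (edgeR adjusted p = 0.0140, 0.0160 and 0.0160). In each of these comparisons 3 of 37 were called (8.11%), against 5.17% and 6.1% of all tested genes. With the GC and length trends removed, 4 of 37 were called in Ulk1OV against WT, against 2.7% of all: H3f3a (-0.70, edgeR adjusted p = 0.0185), Pphln1 (0.37, 0.0321), Trim28 and Mta1 (0.33, 0.0450), while Hdac2 lost its call (0.20, 0.116). For 5xFAD;Ulk1OV against Ulk1OV, 2 of 37 were then called, against 2.09% of all, H3f3a (0.78, edgeR adjusted p = 0.0162) and Pphln1 (-0.39, 0.0274), while Atrx lost its call (-0.16, 0.267). The count for Ulk1OV against WT was 0 without Ulk1OV replicate 3, WT replicate 1 or WT replicate 2, and that for 5xFAD;Ulk1OV against Ulk1OV was 0 without 5xFAD;Ulk1OV replicate 1, 5xFAD;Ulk1OV replicate 2 or Ulk1OV replicate 3; in these fits 0 of all tested genes were called. With the library labelled 5xFAD;Ulk1OV replicate 3 left out the counts were 3 and 5, against 6.72% and 8.97% of all genes. In 5xFAD against WT 0 of 37 were called, and the 2 genes with the smallest p per direction were H3f3a (-0.38 ± 0.10), Mta2 (-0.18 ± 0.11), Pphln1 (0.33 ± 0.09) and Atrx (0.28 ± 0.08), with edgeR adjusted p of 0.228 to 0.510. In 5xFAD;Ulk1OV against 5xFAD 0 were called too, and the corresponding genes were H3f3a (0.45 ± 0.10), Mta2 (0.24 ± 0.11), Atrx (-0.44 ± 0.08) and Pphln1 (-0.37 ± 0.09), with edgeR adjusted p of 0.0547 to 0.258.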

How the data were processed

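RNA from 12 hippocampal libraries was sequenced, 3 in each of 4 groups set by the labels. The authors deposited 1 table of raw read counts per gene; FastQC, Trim Galore, HISAT2, SAMtools, featureCounts, DESeq2 and build mm10 are named per the submitters' processing notes, while the sources used here do not give versions, annotation, strand or the treatment of multi-mapping reads. All sample columns were used. In R 4.3.3, genes passing edgeR 4.0.16's filterByExpr (17227) were TMM-scaled and fitted with a quasi-likelihood model over the 4 groups. P-values were Benjamini-Hochberg adjusted over all tested genes, with calls under 0.05, and an SE is the log2 fold change divided by the root of F. The fit was tested on simulated data.

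Positions, length and GC content came from GENCODE annotation of GRCm38 (GC for 99.3% of tested genes), promoters from RefSeq. Shared sequence was counted in 50-base stretches. GC and length trends were removed per library by loess (span 0.4). Alternatives were DESeq2 1.42.0, its size factors, no filter, the replicate number as a block, these corrections (GC alone, length alone refits of the summed clusters, and GC and length with a library left out were added after seeing the data), only the 6 libraries compared, summed clusters and leaving out each library. Named members were those called in any comparison, otherwise up to 3 with the smallest p per direction, and the 10 highest levels per kb; for the corepressor genes, those called, or 2 per direction. The members and lists were chosen with earlier results of these data known. The total counts per library limit precision; intervals of 0 counts use a floor of 3 counts and cover counting error only, since reads without molecular identifiers are not independent molecules.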

Additional observations from a re-analysis of the deposited data

Results flagged for a closer look

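The difference between 5xFAD;Ulk1OV and Ulk1OV was itself tested against the difference between 5xFAD and WT. By edgeR 12 of the 48 tested members passed that test, as did 12.8% of all tested genes. In the lowest quintile of GC content, which holds all 12, 18.3% of genes passed. On the log2 scale the difference between 5xFAD;Ulk1OV and Ulk1OV was lower than that between 5xFAD and WT by the following amounts. In the chromosome 17 cluster the values were -0.88 for Zfp943, -0.80 for Zfp942, -0.90 for Zfp946, -1.03 for Zfp994, -0.68 for Zfp944, -1.28 for Zfp995 and -0.72 for Zfp948. Elsewhere they were -0.97 for Zfp970, -0.77 for Zfp958, -0.69 for Zfp932, -0.73 for Zfp930 and -1.02 for Zfp934. After the GC and length correction none of the 12 passed the test, while 4.69% of all tested genes did.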

How the results depend on the processing

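Members' counts moved by over 1.5 times under these settings. A percentage in brackets is the share of all genes called in the same fit. With no filter, 61 members and 31643 genes were tested. Over summed clusters the unit was a cluster or a lone member, with 24 tested. In 5xFAD against WT 1 member (Zfp990, lower) was called with no filter on low counts (1.74%). In 5xFAD;Ulk1OV against 5xFAD, DESeq2 called 1 (2.28%) and the test with no filter 2 (2.85%). In Ulk1OV against WT, DESeq2 called 5 (5.87%), the test with no filter 6 (6.57%) and that with the length correction alone 2 (5.49%). The count was 0 with DESeq2's size factors (5.15%), with the GC correction alone (2.14%) and in the 6 libraries compared (4.77%). With GC and length together it was 0 too, without the replicate block (2.7%) or with it (2.4%). In 5xFAD;Ulk1OV against Ulk1OV, DESeq2 called 7 (6.3%) and the test with no filter 8 (6.63%). The count was 1 with the GC and length correction (2.09%), 1 in the 6 libraries compared (2.61%) and 1 over summed clusters (6.13%). It was 0 with the GC correction alone (1.53%) or with GC and length and the replicate block (1.8%). The interaction gave 0 calls with the GC correction alone (4.99%), with GC and length (4.69%), and with GC and length and the replicate block (4.27%). Over summed clusters 4 units were called (12.7%), which is not a count of members. Leaving out 1 library gave 0 to 0, 0 to 1, 0 to 2, 0 to 4 and 5 to 13 called members in these 5 tests, in that order. The shares over all genes reached 0.221%, 1.48%, 7.34% and 9.23% in the 4 comparisons, each from 0.0%. They ran from 5.53% to 14.7% in the interaction. The replicate block alone changed no count (0, 0, 1, 4 and 12, with 3 of the 4 and 11 of the 12 shared). The shares over all genes were then 0.0%, 0.0%, 6.0%, 7.0% and 13.1%. In same-number pairs, r of the deviations from group means ran from -0.183 to 0.216, over 0.1 in 4 of 18. In the other pairs across groups it ran from -0.205 to 0.222. These ranges show no pairing by replicate number, but such a check cannot exclude it. Signs turned in Zfp956 for Ulk1OV against WT (0.0073 with GC and length, 0.0040 with the replicate block added, 0.0034 with GC alone), in Zfp969 for 5xFAD;Ulk1OV against Ulk1OV (-0.055 without 5xFAD;Ulk1OV replicate 1, the lowest, against a highest of 0.62), and in the interaction in Zfp941 (-0.0055 without WT replicate 2, highest 0.37), Zfp969 (-0.25 without WT replicate 1, highest 0.90) and Zfp990 (-1.96 without 5xFAD;Ulk1OV replicate 2 and -2.40 without WT replicate 1, highest 4.29). The members' medians kept their sign in all 104 alternatives, and of the alternatives for named members 989 kept direction and call, 192 lost the call and 23 gained it. The cause of these changes was not tested. Members with few counts are limited by depth.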
